A study of Mus musculus with 16 samples.

Results

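Hey1, Hey2, Heyl and Hes1 are genes that Notch signalling is known to switch on. They were chosen by name as 4 of the 13964 genes in the table, and all 4 were present and passed the filter on low values (a normalised count of at least 1 in at least 4 libraries). RNA was sequenced from aortic and pulmonary valves cut by laser microdissection from C57BL/6 mouse embryos at E14.5. The wild-type groups are WT aortic valve and WT pulmonary valve, and the mutant groups are the same valves of Jag1flox;Nkx2.5-Cre embryos (4 groups, 4 libraries each). The mutants carry a floxed Jag1 allele together with a Cre recombinase driven from Nkx2.5, so the deletion is limited to cells with Nkx2.5 activity and their descendants. The labels do not say whether 1 embryo or several gave a library, nor whether the controls carried either allele. Aortic libraries were made as batch 1 and pulmonary libraries as batch 2, so a difference between valves and a difference between batches cannot be told apart.

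As background, Jag1 on one cell binds Notch receptors on its neighbour, and the cut receptor enters the nucleus and joins the DNA-binding protein Rbpj. The Hey and Hes genes are among the best known genes turned on by that complex. They encode basic helix-loop-helix proteins that repress transcription, and in the heart Hey1, Hey2 and Heyl are linked to endocardium, to the boundaries of the cushions that form the valves, and to vessel wall cells.

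Values are normalised counts (reads scaled to library size and then by the trimmed-mean method, TMM). The libraries gave 4560219 to 8684366 recovered reads, with 77 to 895 reads for each of the 4 genes, from RNA that was amplified before sequencing. Jag1 itself was lower in the mutant of all 8 litter pairs (a wild-type and a mutant library of the same valve and litter), by 9.18% to 88.0%. The libraries also differed in the tissue they held. Skeletal muscle markers (12 genes) summed to 2.99 to 63.6 in 6 libraries, called muscle-poor here, and to 755 to 2416 in 10, called muscle-rich. In each valve the muscle-poor libraries were 2 and 4 of wild type and 4 of the mutants. They had mostly higher sums of endothelial markers (10 genes, 1129 to 2244 against 255 to 1168) and of valve mesenchyme markers (12 genes, 10111 to 13519 against 2436 to 9878), and no marker of these lists was at 0 throughout a group. Over both valves the mutants were higher for 12 of 12 skeletal muscle markers (median log2 difference 0.80) and 7 of 8 neural and Schwann cell markers (0.81), and lower for 7 of 8 erythroid markers (-0.73) and 4 of 5 pericyte markers (-0.46), with none past the threshold. The part of the neural, erythroid and pericyte differences in the results below was not tested. In bulk tissue, fewer cells of a type and less RNA per cell cannot be told apart.

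Hey1 and Heyl had lower values in the mutant of every litter pair in both valves, as did 0.387% of genes tested (54 genes). Hey2 had lower values in the mutant of 3 of the 8 pairs and Hes1 of 5. Averaged over the valves, Hey1 was at 0.558 times and Heyl at 0.632 times the wild-type level on the log2(value + 1) scale. None of the 4 genes passed an adjusted p of 0.05 in limma in either valve or over both, where 0% of the 13963 genes tested passed. At an unadjusted limma p under 0.05 stood Hey1 in the aortic valve (1.4% of genes tested, 196), none of the 4 in the pulmonary valve (3.13%, 437), and Hey1 and Heyl over both (2.79%, 389). For adjusted p, edgeR called 0 genes in each of these comparisons, and DESeq2 called 0, 2 and 5.

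Hey1 (ENSMUSG00000040289, GRCm38 chromosome 3, 8663359 to 8667256, minus strand, protein-coding) encodes a repressor found in endocardium. In the aortic valve it was 51.6, 64.9, 53.5 and 32.8 in wild-type libraries 1 to 4, and 32.4, 21.1, 34.6 and 13.7 in the mutant libraries of the same litters. Wild-type library 4 lay among the mutant values, and the other 3 wild-type libraries lay above all of them. A full separation in this direction, which 0.824% of genes tested showed in this valve, was seen for none of the 4 genes. The mean was 50.7 ± 13.3 in wild type and 25.4 ± 9.82 in mutants (SD, n = 4 each). The log2 difference was -1.01 (SE 0.37, 95% interval -1.80 to -0.23; limma unadjusted p = 0.0146, adjusted p = 1.00), which ranked 35th by p of all genes tested. In the pulmonary valve Hey1 was 67.0, 63.3, 35.2 and 28.5 in wild-type libraries 1 to 4, against 51.7, 21.5, 28.1 and 20.01 in their mutant partners. Here the groups overlapped more, with mutant library 1 above wild-type libraries 3 and 4. The pulmonary log2 difference was -0.67 (SE 0.37, 95% interval -1.46 to 0.11; limma adjusted p = 1.00).

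The Hey1 value was lower in the mutant of 4 of 4 pairs in each valve, which 5.03% of genes tested showed in the aortic and 6.9% in the pulmonary valve. The mutant was below its partner by 35.4% to 67.4% in the aortic valve and by 20.1% to 66.1% in the pulmonary valve. Pair 2 of both valves came from the same litter and had the largest gap in each, with log2 differences of -1.57 and -1.52. It was also the only pair of each valve with a muscle-poor wild-type and a muscle-rich mutant library. The part of that mismatch in the gap was not tested. Over both valves the difference was -0.84 (SE 0.26, limma unadjusted p = 0.00526), and with the litter pairs as a block it kept that size with an SE of 0.19 (limma unadjusted p = 0.000459, adjusted p = 0.417). The valves did not differ in the size of the Hey1 genotype difference beyond their error (0.34, SE 0.53, 95% interval -0.77 to 1.45), and for none of the 4 genes was the unadjusted p of that test under 0.05, against 1.89% of genes tested (limma, 0% by adjusted p).

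**Figure D1:**
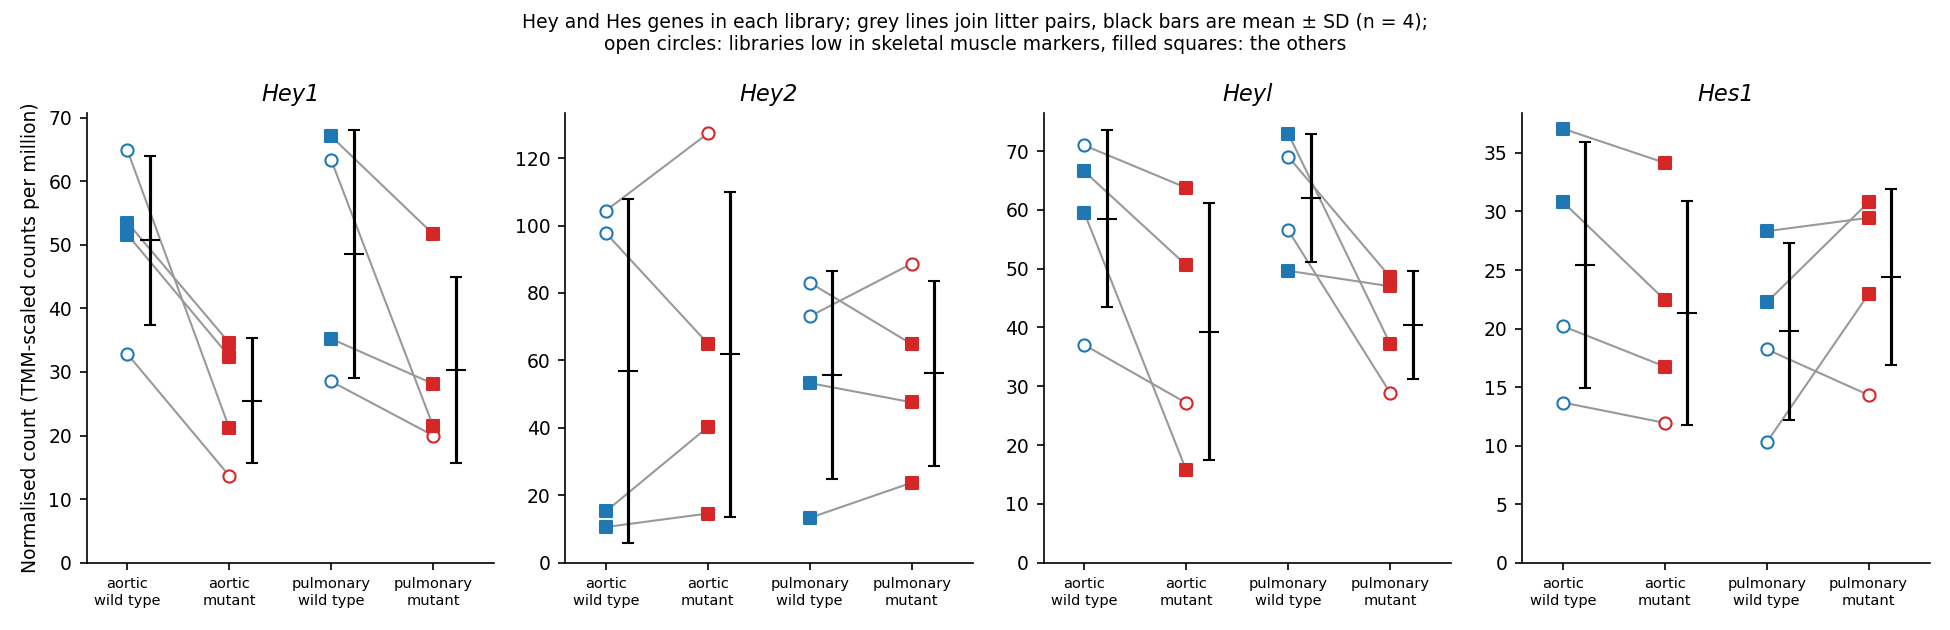
Normalised counts (y axis) of Hey1, Hey2, Heyl and Hes1 in the 16 libraries, by valve and genotype (x axis). Points are libraries, grey lines join litter pairs, and black bars give the mean ± SD of 4 libraries. Every grey line slopes down for Hey1 and Heyl, while for Hey2 the open circles (the 6 muscle-poor libraries, 73.0 to 127) lie above the filled squares (10.6 to 65.0).

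Heyl (ENSMUSG00000032744, GRCm38 chromosome 4, 123233556 to 123249875, plus strand, protein-coding) is the family member best known from vascular smooth muscle and mesenchyme. In the pulmonary valve it was 49.6, 69.0, 73.0 and 56.5 in wild-type libraries 1 to 4, against 47.0, 48.6, 37.2 and 28.9 in mutant libraries. All 4 mutant libraries lay below all 4 wild-type libraries, a separation in this direction that 1.05% of the genes tested showed. The mean was 62.0 ± 10.8 in wild type and 40.4 ± 9.18 in mutants (SD, n = 4 each), with a log2 difference of -0.62 (SE 0.35, 95% interval -1.36 to 0.13; limma unadjusted p = 0.0979, adjusted p = 1.00). In the aortic valve Heyl was 59.5, 71.0, 66.5 and 37.0 in wild-type libraries, against 15.7, 63.7, 50.6 and 27.2 in mutant libraries, so the groups overlapped. The aortic log2 difference of -0.71 (SE 0.35, limma adjusted p = 1.00) owed much of its size to mutant library 1 and was -0.35 without it.

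The mutant Heyl value was below its partner by 10.2% to 73.6% in the aortic valve and by 5.32% to 49.0% in the pulmonary valve. Lower values in the mutant of 8 of 8 pairs were found for 0.387% of the genes tested, 54 genes, which include Hey1, Heyl and Jag1. Over both valves the Heyl difference was -0.66 (SE 0.25, limma unadjusted p = 0.0167), and the SE was 0.19 with the litter pairs as a block (limma unadjusted p = 0.00396, adjusted p = 0.687). Over the 16 libraries the levels of Hey1 and Heyl had Pearson r = 0.49 and Spearman rho = 0.56 (permutation adjusted p = 0.101 and 0.0737). That r was 0.91 in the muscle-poor and 0.15 in the muscle-rich libraries. The pairs with large gaps were not the same for the 2 genes. Aortic pair 2 had the largest Hey1 gap of that valve and the smallest Heyl gap (log2 -0.15), and aortic pair 1 had the largest Heyl gap (-1.86) with a Hey1 difference of -0.65.

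Hey1 and Heyl were also lower in mutants when the libraries were split by skeletal muscle markers, a division made after their values were known. In the 10 muscle-rich libraries the difference over both valves was -0.73 (SE 0.29) for Hey1 and -0.59 (SE 0.33) for Heyl. That subset was not balanced, since 3 of its 4 wild-type but 2 of its 6 mutant libraries had an endothelial marker mean of at most 4.99. Within these 10 libraries Hey1 went down as that mean went up (Pearson r = -0.83). The part of the imbalance in the Hey1 difference was not tested. The 6 muscle-poor libraries hold 1 mutant and 2 wild-type libraries of each valve. There the difference over both valves was -1.37 (SE 0.42) for Hey1 and -0.99 (SE 0.31) for Heyl. Among these 6, Hey1 was 13.7 and 20.01 in the mutants against 28.5 to 64.9 in wild type. Heyl was 27.2 and 28.9 against 37.0 to 71.0. The share of all genes that separate in this way in the subset was not computed. With the endothelial marker mean as a covariate the differences over both valves were -0.79 for Hey1 and -0.67 for Heyl. With the skeletal muscle marker mean they were -0.91 and -0.72. The part of the libraries' tissue make-up in these differences was not tested.

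**Figure D2:**
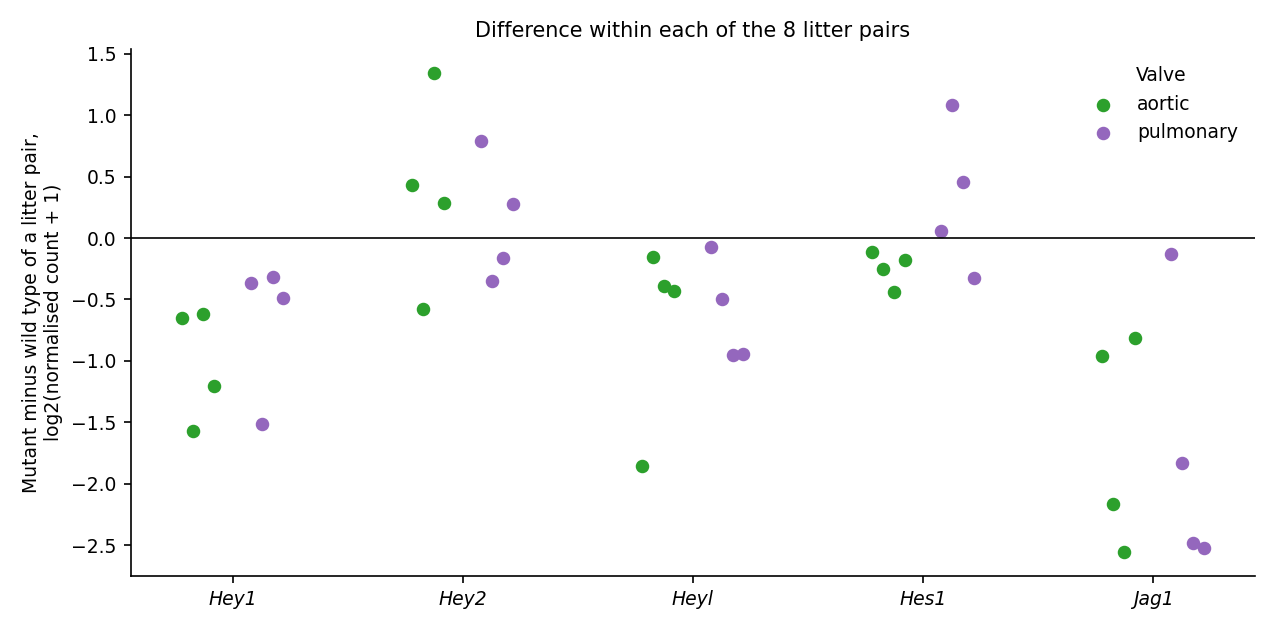
Mutant minus wild type in each litter pair (y axis, log2 of the normalised count + 1) for the 4 genes and for Jag1 (x axis), with aortic pairs in green and pulmonary pairs in purple. All 8 points lie below 0 for Hey1, Heyl and Jag1, whereas Hey2 has 3 points below 0 and Hes1 has 5.

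Hey2 (ENSMUSG00000019789, GRCm38 chromosome 10, 30832359 to 30842801, minus strand, protein-coding) encodes a repressor of ventricular compact myocardium and of endothelial and vessel wall cells. The RefSeq promoter table (GRCm38.p6) had an entry for this gene and none for Hey1, Heyl and Hes1. The 232 bases before its GENCODE start are shown because Rbpj, through which Notch acts on these genes, is known to bind the letters GTGGGAA. The search covered each RefSeq window whole, from 250 bases before to 50 after the RefSeq start, on both strands. Capitals mark the match, which reads as TTCCCAC in this orientation and starts 207 bases before the RefSeq start.
Hey2 promoter (GRCm38.p6, minus strand, chr10:30842802-30843033): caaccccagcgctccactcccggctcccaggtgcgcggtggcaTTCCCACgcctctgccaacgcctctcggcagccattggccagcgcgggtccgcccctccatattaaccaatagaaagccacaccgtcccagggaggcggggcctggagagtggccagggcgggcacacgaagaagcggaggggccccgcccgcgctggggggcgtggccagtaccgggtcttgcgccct
Hey2 match at the RefSeq start (GRCm38.p6, minus strand, capitals at chr10:30842781-30842787): gctgcagcGTGGGAAagaacctc
The letters occur on either strand in 6.38% of 32851 windows, and in both orientations, as in Hey2, in 0.1% (33 windows). A match of letters is a description and was not tested as a binding site here.

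Hey2 varied more between libraries than any other of the 4 genes and its genotype difference did not pass the threshold. In the aortic valve it was 10.6, 97.8, 15.3 and 104 in wild-type libraries 1 to 4, against 14.6, 65.0, 40.2 and 127 in mutant libraries. In the pulmonary valve it was 13.3, 83.1, 53.3 and 73.0 in wild-type libraries, against 23.7, 64.8, 47.6 and 88.7 in mutant libraries. Wild type and mutants spanned nearly the same range in each valve. The SD of its log2 level within groups was 1.27, against 0.56 for Hey1, 0.53 for Heyl and 0.58 for Hes1. The log2 difference over both valves was 0.25 (SE 0.55, 95% interval -0.90 to 1.41; limma adjusted p = 1.00). It turned negative without wild-type aortic library 1 (-0.028) or wild-type pulmonary library 1 (-0.032). It was 0.98 (SE 0.46, limma unadjusted p = 0.0527, adjusted p = 0.80) in the 10 muscle-rich libraries, 0.26 (SE 0.16) in the 6 muscle-poor ones, 0.52 (SE 0.35) with the skeletal muscle and 0.055 (SE 0.19) with the endothelial marker mean as a covariate.

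The Hey2 level varied with the tissue markers of the library. It was 73.0 to 127 in the muscle-poor libraries and 10.6 to 65.0 in the muscle-rich ones, without overlap, a separation in this direction shown by 2.6% of the genes tested. Against the mean log2 level of the endothelial markers, Hey2 had Pearson r = 0.95 over the 16 libraries (permutation adjusted p = 0.00018) and Spearman rho = 0.90 (permutation adjusted p = 0.00018), and r = 0.92 without the 2 libraries farthest from the median endothelial level. The endothelial means left a gap between 5 libraries (at most 4.99) and 11 (at least 5.69), and within these 11 r was 0.85. It was 0.97 in the 8 aortic and 0.96 in the 8 pulmonary libraries, 0.90 in the 10 muscle-rich and 0.77 in the 6 muscle-poor libraries. Hey2 also went with the valve mesenchyme markers (r = 0.91, rho = 0.86, permutation adjusted p = 0.00018 for each). That r was 0.91 without the 2 farthest libraries, 0.91 in the aortic and 0.96 in the pulmonary libraries, 0.86 in the muscle-rich and -0.59 in the muscle-poor ones. Of all 11309 genes with a mean of at least 5, the 3 whose pattern over the 16 libraries was most like that of Hey2 were Lrrc8c, a subunit of volume-regulated anion channels (r = 0.98), Emilin1, an elastic fibre glycoprotein (r = 0.98), and the receptor gene Notch1 (r = 0.98). Notch1 was 195 to 304 in muscle-poor and 38.4 to 177 in muscle-rich libraries. These r values describe shared patterns across libraries that differ in tissue and carry no test.

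Hes1 (ENSMUSG00000022528, GRCm38 chromosome 16, 30064384 to 30067796, plus strand, protein-coding) is a repressor expressed in many progenitor cell types, and in several of them also without Notch. It ran opposite to Hey2. In the aortic valve it was 37.1, 20.2, 30.8 and 13.7 in wild-type libraries 1 to 4, against 34.2, 16.8, 22.5 and 11.9 in mutant libraries. In the pulmonary valve it was 28.3, 10.3, 22.2 and 18.2 in wild-type libraries, against 29.5, 22.9, 30.8 and 14.3 in mutant libraries. Each mutant library of the aortic valve was below its litter partner, by 7.87% to 27.2%, and 5.03% of genes tested were lower in all 4 aortic pairs. In the pulmonary valve 1 of 4 mutants was below its partner, and the pair differences ran from 21.4% lower to 123% higher. The log2 difference was -0.25 (SE 0.39, 95% interval -1.08 to 0.59) in the aortic and 0.32 (SE 0.39, 95% interval -0.52 to 1.15) in the pulmonary valve, with a limma adjusted p of 1.00 in each. The difference between the valves was not past its error (0.56, SE 0.56; limma adjusted p = 1.00).

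Hes1 was 10.3 to 20.2 in muscle-poor and 16.8 to 37.1 in muscle-rich libraries, with some overlap. Its level went down as the endothelial markers went up, with r = -0.87 and rho = -0.89 over the 16 libraries (permutation adjusted p = 0.00018 for each). Without the 2 farthest libraries r was -0.90, within the 11 libraries of higher endothelial level it was -0.85, and it was -0.96 in the aortic and -0.77 in the pulmonary libraries. Against the valve mesenchyme markers Hes1 had r = -0.75 and rho = -0.74 (permutation adjusted p = 0.00396 and 0.00544), with r = -0.75 without the 2 farthest libraries, -0.81 in the aortic and -0.69 in the pulmonary libraries, -0.60 in the muscle-rich and 0.40 in the muscle-poor ones. Hes1 and Hey2 were themselves opposed (r = -0.86, rho = -0.89, permutation adjusted p = 0.00018 for each). That r was -0.87 without the 2 farthest libraries, -0.95 in the aortic and -0.72 in the pulmonary libraries, and -0.27 among the 6 muscle-poor ones. The genes with a pattern most like that of Hes1 were Btf3l4 (r = 0.95), Cfap36 (r = 0.95) and Phex (r = 0.94). For these relations 18 were computed (4 genes against 3 marker lists and 6 pairs of genes), with p adjusted over the 18. The 16 libraries came from 5 litters, and a library of 1 valve may share an embryo with a library of the other. The permutations took no account of litter, valve or genotype, so the p-values over 16 may be too small.

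**Figure D3:**
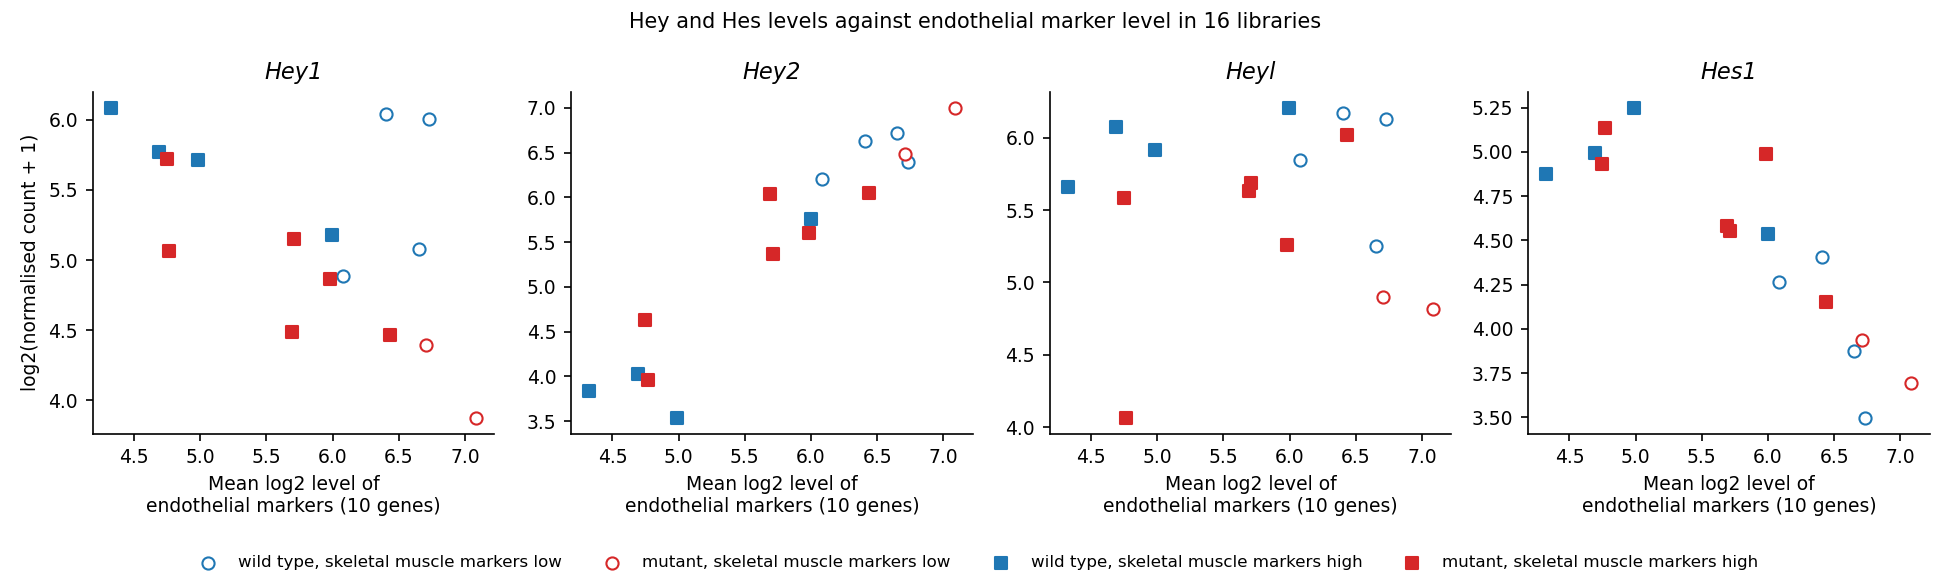
Level of each gene (y axis, log2 of the normalised count + 1) against the mean log2 level of 10 endothelial markers (x axis) in the 16 libraries, in blue for wild type and red for mutants, with open circles for the 6 muscle-poor libraries. Hey2 goes up along the axis (r = 0.95) and Hes1 goes down (r = -0.87), while mutants tend to lie below wild type for Hey1.

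Hey1 and Heyl showed no relation to the endothelial markers that passed. For Hey1 r was -0.53 and rho -0.47 (permutation adjusted p = 0.0922 and 0.152), with -0.36 after leaving out the 2 farthest libraries, -0.56 in the aortic and -0.48 in the pulmonary libraries. It was -0.83 in the 10 muscle-rich and -0.42 in the 6 muscle-poor libraries, and -0.13 in the 11 of higher endothelial level. For Heyl r was 0.0011 and rho -0.032 (permutation adjusted p = 0.997 and 0.908), 0.13 without the 2 farthest, 0.027 in the aortic and -0.033 in the pulmonary libraries. Against the valve mesenchyme markers neither gene passed. There Hey1 had r = -0.43 and rho = -0.27 (permutation adjusted p = 0.17 and 0.453), with r = -0.88 in the muscle-rich and 0.61 in the muscle-poor libraries. Heyl had r = -0.042 and rho = 0.091 (permutation adjusted p = 0.992 and 0.908). Heyl went with the smooth muscle markers (8 genes) at r = 0.66 (permutation adjusted p = 0.0137), but rho was 0.55 (permutation adjusted p = 0.0737), r fell to 0.44 without the 2 farthest libraries, and it was 0.83 in the aortic and 0.37 in the pulmonary libraries. The smooth muscle markers summed to 385 to 587 in wild-type and 204 to 628 in mutant aortic libraries, and to 269 to 574 and 360 to 426 in pulmonary ones. With their mean as a covariate the Heyl difference was -0.46 in the aortic and -0.65 in the pulmonary valve. Pericyte markers (5 genes) summed to 158 to 334 in wild-type and 98.0 to 253 in mutant aortic libraries, and to 145 to 323 and 145 to 262 in pulmonary ones, and their part in the Heyl difference was not tested. Closest to Hey1 in pattern were Cebpzos, Psmf1 and Bccip (r = 0.78 each), and closest to Heyl were Il1f9 (r = 0.79), Rell1 and Sat1 (r = 0.77 each), all less close than the nearest genes of Hey2 and Hes1.

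Per kilobase of exon (all annotated exons of a gene joined, GENCODE M21), the 4 genes lay at like levels. This allows for their different lengths only if reads cover all annotated exons evenly, which was not tested in this amplified RNA. The mean over the 16 libraries was 11.9 ± 5.33 normalised counts per kilobase for Hey1, 12.6 ± 7.95 for Hey2, 9.79 ± 3.35 for Heyl and 11.2 ± 4.07 for Hes1 (SD, n = 16), so no neighbours in this order differed beyond their spread. In wild-type aortic valve the order was Hey1 (15.5 ± 4.07), Hes1 (12.5 ± 5.15), Hey2 (12.4 ± 11.1) and Heyl (11.4 ± 2.95), and in mutant aortic valve it was Hey2 (13.5 ± 10.5), Hes1 (10.5 ± 4.70), Hey1 (7.79 ± 3.01) and Heyl (7.69 ± 4.27; SD, n = 4 each). Which gene was highest changed from library to library, with Hey2 highest in 7 of the 16, Hey1 in 4, Hes1 in 4 and Heyl in 1.

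Between the valves the 4 genes showed no difference that passed, where limma called 0% of genes in wild type and 0% in mutants (1.1% and 0.48% at an unadjusted p under 0.05, 153 and 67 genes, with none of the 4 among them, and 0 called by edgeR and DESeq2). The pulmonary minus aortic log2 difference in wild type was -0.11 for Hey1, 0.33 for Hey2, 0.11 for Heyl and -0.34 for Hes1, with SEs of 0.37, 0.78, 0.35 and 0.39. In mutants it was 0.23 for Hey1, 0.095 for Hey2, 0.20 for Heyl and 0.23 for Hes1, with the same SEs.

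The Hes and Hey family had 3 further members in the table, Hes6, Bhlhe40 and Bhlhe41. Hes6, known as an inhibitor of Hes1, had a mean of 12.6 ± 6.51 in wild-type against 9.73 ± 4.02 in mutant aortic valves, and of 11.2 ± 8.85 against 9.98 ± 4.01 in pulmonary valves (SD, n = 4 each). Bhlhe40, a repressor of the circadian clock that responds to hypoxia, had means of 29.8 ± 14.1 against 43.9 ± 18.4 in aortic valves, and 48.5 ± 15.2 against 35.2 ± 8.28 in pulmonary valves. It was lower in the mutant of 4 of 4 pulmonary pairs (as were 6.9% of genes tested), by 13.5% to 34.7%, and of 2 of 4 aortic pairs. Bhlhe41, its close relative, was low throughout, at 0.175 to 8.87, and was higher in the mutant of 4 of 4 aortic pairs, as were 5.99% of genes tested. Of the 7 family members tested, 4 lay below 0 in the aortic valve (47.2% of genes tested did), 5 in the pulmonary valve (49.1%) and 3 over both (47.8%), with a median log2 difference of 0.034 over both against 0.013 for all genes tested. So the lower values in all pairs of both valves, which 0.387% of genes tested showed, were seen for Hey1 and Heyl of these 7.

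**Figure D4:**
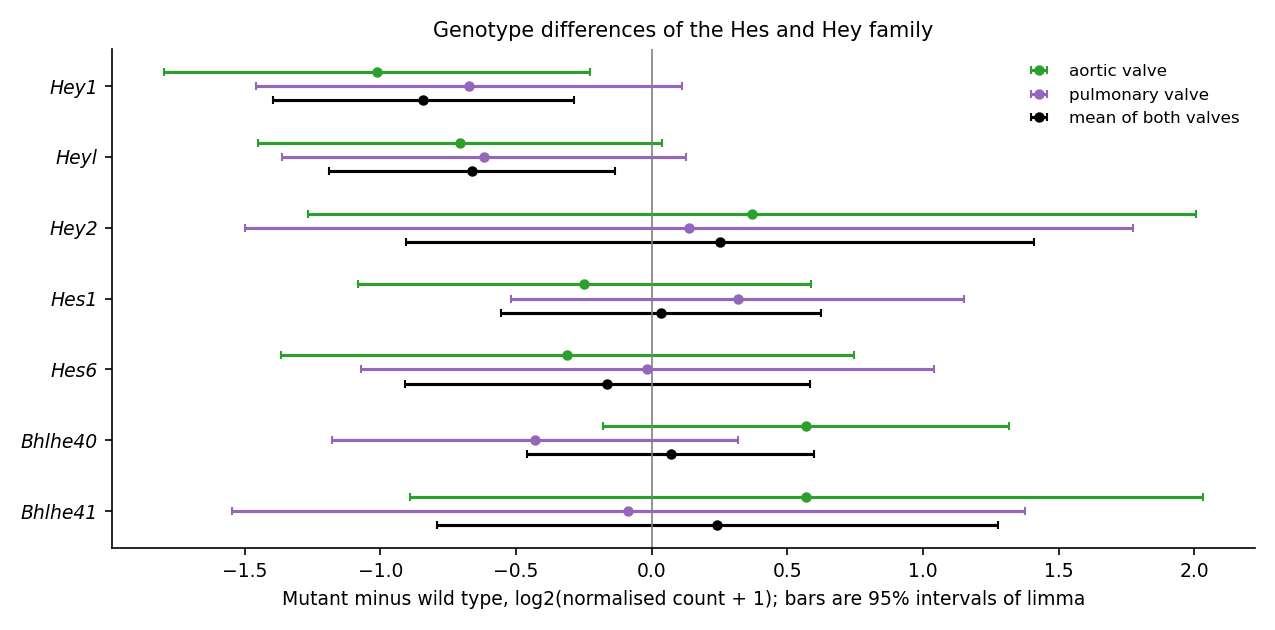
Mutant minus wild type (x axis, log2 of the normalised count + 1) for the 7 tested members of the Hes and Hey family (y axis), in the aortic valve, the pulmonary valve and their mean, with 95% intervals from limma. The interval of the mean lies below 0 for Hey1 (-1.40 to -0.29) and Heyl (-1.19 to -0.14) before adjustment over all genes, and includes 0 for the other 5.

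No gene of the pathway lists passed the threshold in limma, while Jag1 was among the 5 genes that DESeq2 called over both valves. Of 32 tested ligands, receptors and Notch machinery genes, 12 lay below 0 and 20 above over both valves, with a median of 0.038 and none past the threshold in limma. Beside Jag1, those with the smallest p were Rbpj, the partner of the cut receptor (0.32, SE 0.16, higher in the mutant of 6 of 8 pairs), and Mib2, which helps ligands to signal (-0.48, SE 0.29, lower in 5 of 8). Of 17 other genes linked to Notch activity, 12 lay above 0 and 5 below (median 0.18). Those named were picked for the smallest p of this list. They were Bcl2, a survival factor (0.58, SE 0.26), Dtx1, a Notch regulator (0.73, SE 0.40), and Efnb2, an arterial ephrin (0.52, SE 0.30). Each was higher in the mutant of 6 of 8 pairs. Over both valves 47.8% of all genes tested lay below 0. The share of all genes with such pair counts was not computed.

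Genes that Hey and Hes proteins are known to repress were described in the same way. Of 12 tested, 7 lay above 0 and 5 below over both valves (median 0.14), and none passed. Of all genes tested, 47.8% lay below 0. Those with the smallest p were Bmp4, Tbx3 and Dll1. Bmp4, a growth factor of outflow development, differed by 0.40 (SE 0.34) and was higher in the mutant of 7 of 8 pairs. Tbx3 differed by 0.24 (SE 0.23), higher in 4 of 8, and the ligand gene Dll1 by 0.61 (SE 0.65), higher in 5 of 8. Of 22 partners and corepressors of these proteins, 13 lay above 0 and 9 below (median 0.022), none past the threshold. Those with the smallest p were Hif1a, Tle4 and Runx2. The corepressor Tle4 differed by 0.45 (SE 0.22) and was higher in the mutant of 7 of 8 pairs. The hypoxia factor Hif1a differed by 0.32 (SE 0.13), higher in 6 of 8. Runx2, a factor of bone formation, differed by 0.87 (SE 0.56), higher in 6 of 8. The share of all genes with such pair counts was not computed, so these counts of picked genes have no background. The 16 libraries hold 4 embryos or pools of embryos for each group, so p-values measure the spread between these samples.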

How the data were processed

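The authors deposited a table of a normalised signal, 1 column per library, for 13964 genes. The submitters' processing notes name RSEM 1.2.3, CASAVA 1.8.2, cutadapt 1.6 and FastQC, and the build GRCm38. For the scaling and the filter, the method is not given in sources used here. Divided by the worth of 1 read, 100% of deposited values lay within 0.05 of a whole number, and the scaling matched TMM factors recomputed with edgeR 4.0.16 to within 0.001%. Recovered reads were 4560219 to 8684366 per library. Per the labels' protocols the RNA was amplified, so reads are not independent molecules. RSEM gives estimated counts, so recovered reads may be rounded.

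Ensembl IDs were matched to symbols through a GENCODE table (13780 of 13964). The test was limma 3.58.1 (R 4.3.3, with a mean-variance trend) on log2(value + 1), in 1 model of all 16 libraries with a mean per group, two-sided, with Benjamini-Hochberg adjustment over 13963 genes and a threshold of 0.05. edgeR and DESeq2 1.42.0 on recovered reads were alternatives. The code of the fit was checked on simulated data. These had the same spread setting for every gene and no litter or tissue effect, so the check does not show how the fit performs on these libraries. Folds understate the change of low genes. Relations across libraries used 100000 permutations, two-sided.

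Per the labels, a mutant and a wild-type library with 1 number in 1 valve share a litter (8 pairs from 5 litters, 3 of which gave both valves). Their deviations from group means correlated at 0.48, 0.011, 0.20 and 0.64 for aortic pairs, and at 0.49, -0.035, 0.066 and 0.45 for pulmonary pairs. Within a valve the 4 libraries of a group come from 4 litters. The members and gene lists were chosen with earlier results of these data known. Named genes are the 4 members, Jag1, the tested Hes and Hey family, up to 3 of each other list by smallest p over both valves, and the 3 genes most like each member in pattern (predicted genes skipped). Replicates correlated at 0.79 to 0.93, and any 2 of a group differed by more than counting noise (chi-square per gene at least 24.1).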

Additional observations from a re-analysis of the deposited data

How the results depend on the processing

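For the 4 genes, 496 alternative values of the genotype differences and of their difference between the valves were computed, and 0 passed the threshold (lowest adjusted p = 0.299). Hey1 and Heyl kept their direction in each valve and over both under all of them. Over both valves Hey1 ranged from -1.37 to -0.70 and Heyl from -0.99 to -0.48. Both valves' Hey1 differences were over 1.5 times larger in the 6 muscle-poor libraries (-1.69 aortic, -1.05 pulmonary), as was that of Heyl in the pulmonary valve (-1.09). Each valve has 1 mutant library in that subset, which is assumed to vary like the wild-type ones. The Hey2 difference was 0.98 over both valves and 1.35 in the aortic valve in the muscle-rich libraries. Of the values, 38 turned sign, none of them for Hey1. With library weights Hey2 was -0.29 in the aortic valve, -0.21 in the pulmonary valve and -0.25 over both, and the difference between valves was 0.084 for Hey2 and -0.10 for Heyl. That difference for Heyl was also -0.042 with edgeR, -0.017 with DESeq2, -0.19 with the smooth muscle covariate and -0.19 in the muscle-poor libraries. For Hey2 it was 0.17 with the endothelial and 0.21 with the mesenchyme covariate, and the aortic Hey2 difference was -0.031 with the endothelial covariate. Hes1 over both valves was -0.097 with the skeletal muscle covariate and -0.19 both in the muscle-rich and in the muscle-poor libraries. Leaving out 1 library at a time gave -0.20 to 0.91 for Hey2 in the aortic valve, -0.43 to 0.49 in the pulmonary valve, -0.032 to 0.53 over both and -0.80 to 0.33 between valves, -0.27 to 0.38 for Heyl between valves and -0.099 to 0.15 for Hes1 over both. The cause was not tested. Genes called over both valves went from 0 to 2 with the litter pairs as a replicate block and 1 with the 5 litters as a block, neither of them a member, and to 5 with DESeq2 (Jag1 among them, 2 in the pulmonary valve). They were 2 with the skeletal muscle, endothelial or mesenchyme covariate, and 3 in the muscle-rich libraries (3 aortic, 2 pulmonary) and 3 in the muscle-poor ones (3 aortic, 1 pulmonary). Leaving out 1 library gave 0 to 2 in the aortic valve (2 without wild-type library 4) and 0 to 3 over both (3 without that library, 2 without wild-type pulmonary library 2). The subsets, the mesenchyme and smooth muscle covariates and edgeR with the block were chosen after seeing the data. The replicate block changed no call of the 4 genes. The RNA was amplified, so the number of molecules behind the reads, and the error it adds, is not known.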
